A study of Mus musculus with 10 samples.

Results

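A set of 39 leukocyte genes was followed in nasal respiratory epithelium that lacked the miR-34 and miR-449 microRNAs, to ask whether other lymphocyte genes followed the rise of the granzyme gene Gzma there. The set was chosen by name to cover myeloid cells, mast cells, cytotoxic lymphocytes and T cells. Of these, 38 had a probe set that the platform annotation ties to a single gene symbol, out of 22180 genes measured in that way, and each of the 38 had exactly 1 such probe set. Lck, a kinase of the T cell receptor, had no such probe set, so its expression was not analysed here, and it enters only the promoter counts. No filter on intensity was applied, so no member dropped out for being dim.

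The samples were 10 mouse embryos at E16.5, with 1 array per embryo. The groups compared were 5 triple knockout embryos (TKO), labelled as lacking miR-34 and miR-449, and 5 wild-type embryos (WT). The ciliated lining of the nasal passages had been isolated by laser capture from embryos embedded in paraffin, and its RNA was put on Affymetrix whole-transcript arrays. Per the labels, 2 TKO embryos were female and 3 were male (TKO 2, TKO 4 and TKO 5), and 4 WT embryos were female and 1 was male (WT 3). The labels name no strain, allele, litter or hybridisation time, so no batch could be tested. Every value is a log2 value made by the authors with robust multi-array averaging (RMA), and a difference of 1 is a doubling. Because probe sets differ in how brightly they report, a level says nothing about which of a pair of genes is the more expressed, and values are tested between embryos only.

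The immune system of a late mouse embryo rests mainly on macrophages and mast cells that were seeded early in development. Macrophages depend on the transcription factor PU.1 and on signals through the receptor of colony stimulating factor 1, and mast cells depend on the receptor KIT. Natural killer (NK) cells and cytotoxic T cells kill with granzymes, proteases that enter the target cell through pores made by perforin, and they are few in most fetal tissues. Osteoclasts, which resorb bone, come from the same lineage as macrophages and share many of their genes. A cell type marker in RNA from a captured tissue patch reports both the number of such cells and the RNA in each of them, and fewer cells of a type and less RNA per cell cannot be told apart.

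The microRNAs removed in the TKO embryos act by pairing of their seed, bases 2 to 8, with messenger RNAs. The mature sequences used here (RefSeq, GRCm38.p6) are shown with the seed in capitals because all 4 carry the same seed. No entry was used for miR-34c and miR-449b, which also belong to these families. Of those shown, miR-34a is on chromosome 4, miR-34b on chromosome 9 and miR-449a and miR-449c on chromosome 13.
mmu-miR-34a-5p (chr4:150068473-150068494, plus strand): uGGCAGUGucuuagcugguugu
mmu-miR-34b-5p (chr9:51103610-51103632, minus strand): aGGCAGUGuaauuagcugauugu
mmu-miR-449c-5p (chr13:113036008-113036028, plus strand): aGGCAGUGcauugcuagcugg
mmu-miR-449a-5p (chr13:113037549-113037570, plus strand): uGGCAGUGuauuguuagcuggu
The probe set of the Mir449c gene fell by 3.41 on the log2 scale in TKO (limma adjusted p = 2.6e-05), and no array of either genotype crossed into the other's range.

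Markers of the labelled tissue were measured on every array, and their mean was similar in both genotypes. The mean of 18 measured respiratory epithelium genes (among them the epithelial adhesion genes Epcam and Cdh1 and the ciliated cell factor Foxj1) lay between 9.43 and 9.59 in TKO and between 9.38 and 9.53 in WT. For the 38 leukocyte genes, read by other probe sets, the mean lay between 5.11 and 5.56 in TKO and between 5.07 and 5.49 in WT. Ptprc, which encodes CD45, the surface phosphatase that defines leukocytes, had 3.62, 3.57, 3.45, 3.61 and 3.51 in TKO 1 to 5, against 3.47, 3.77, 3.74, 3.72 and 3.77 in WT 1 to 5. All of these lay under 4.58, the 25th percentile of gene means over the whole table. In all, 11 of the 38 leukocyte genes had means under that value and 27 did not. The deposited table carries no detection call, so a value near the bottom of the range does not show whether a gene was expressed, and the place of a gene in the range says nothing about the share of leukocytes.

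None of the 38 leukocyte genes passed the test between genotypes. Across the table, 779 of 22180 genes (3.51%) passed an adjusted p of 0.05 in limma with sex in the model, 626 of them higher in TKO (2.82%) and 153 lower (0.69%). Among the leukocyte genes the count was 0, and the smallest adjusted p was 0.114. The arrays of the genotypes failed to overlap for 1334 genes (6.01%) and for 0 of the 38. An unadjusted p under 0.05 was reached by 3847 genes (17.3%), and by 2 of the 38, Cd52 and Spi1, both with lower values in TKO. That unadjusted count was 9 without WT 2 and 0 without sex in the model.

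With sex in the model the estimates leaned to lower values in TKO without any gene passing. Of the 38 changes, 29 were negative and 9 positive, and their median was -0.12, while the median of all genes was -0.011 and 52.5% of them were negative. The changes ran from -0.84 for Cpa3 to 0.27 for Mcpt4, and 37 of 38 were under 0.5 in size. The 95% interval held 0 for 36 genes, reached 0.5 or more for 2 (Mcpt4 and S100a8) and reached -0.5 or less for 12, so decreases of that size lay within the error for those 12. The median was -0.038 without sex in the model, where 24 of the 38 changes were negative. It was 0.0045 with the mean of 9 osteoclast genes as a covariate and 0.020 with the mean of 20 mesenchyme genes. With either covariate 18 of the 38 changes were negative, and both covariates were chosen after the data were seen. The signs of 5 genes with estimates near 0 (C1qb, Gzmb, Coro1a, Kit and S100a9) turned when the arrays were scaled in another way.

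**Figure D1:**
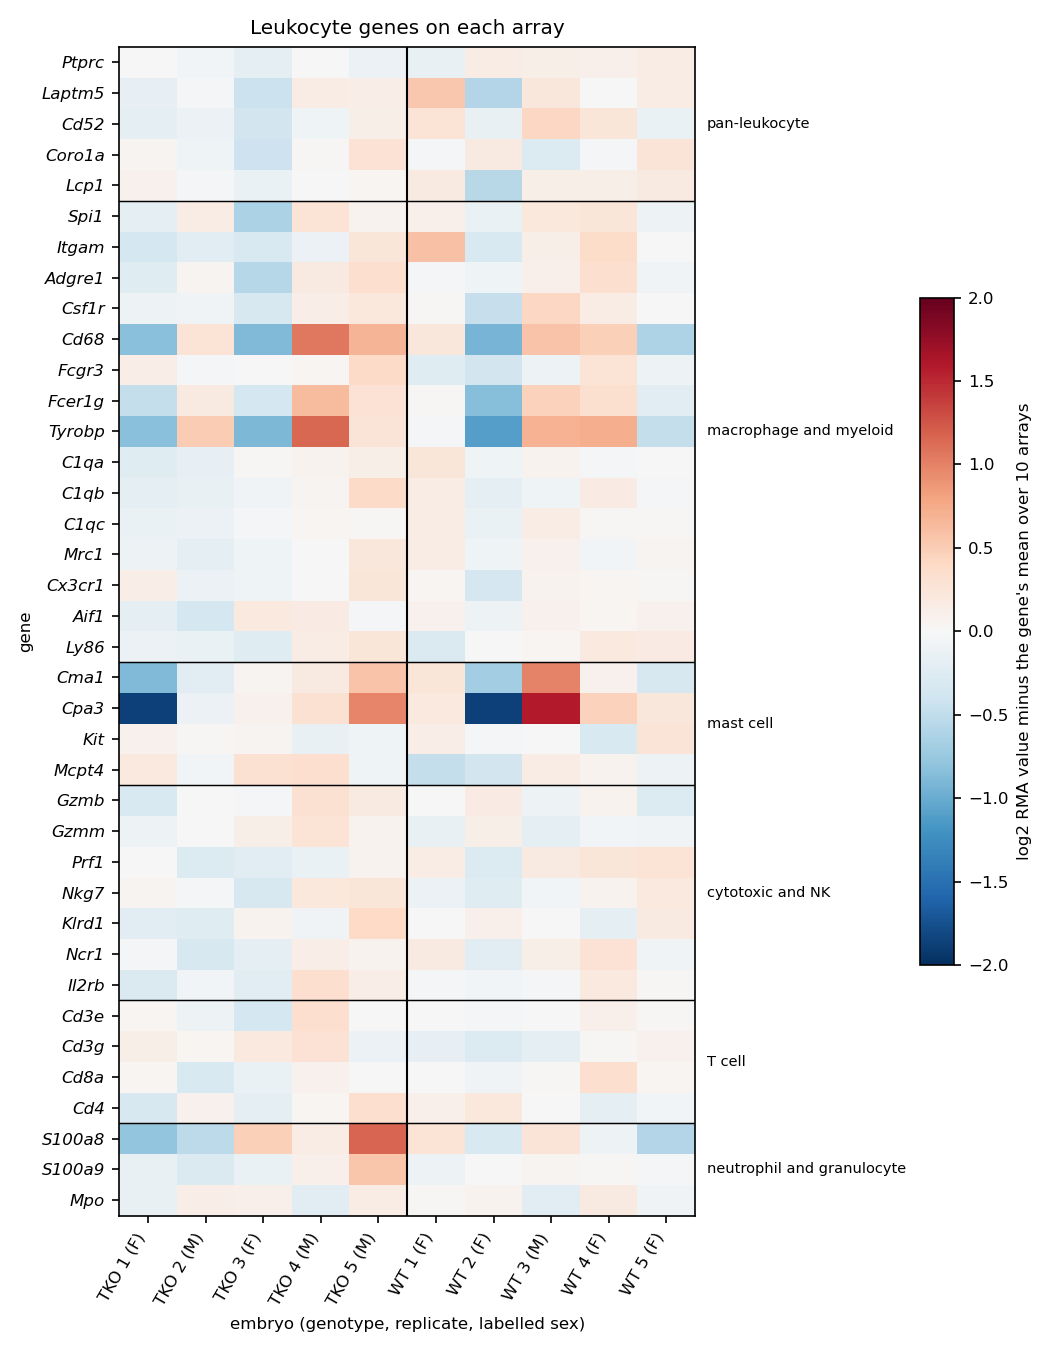
Each row is a leukocyte gene and each column an embryo, TKO at the left and WT at the right, with sex in brackets. Colour gives the log2 RMA value minus the gene's mean over the 10 arrays. Cd68, Tyrobp, Fcer1g, Cpa3, Cma1 and the neutrophil gene S100a8 hold most of the strong colour, which differs between embryos of the same genotype. Most lymphocyte rows are pale on every array.

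Gzma encodes granzyme A, a protease of NK cells and cytotoxic T cells, and its values set the scale for the rest. It had 9.27, 9.51, 9.59, 8.97 and 9.18 in TKO 1 to 5, against 7.50, 8.21, 7.42, 7.63 and 8.15 in WT 1 to 5. Every TKO embryo was above every WT embryo. The means were 9.30 ± 0.25 in TKO and 7.78 ± 0.37 in WT (SD, n = 5 each), and with sex in the model Gzma rose by 1.65 (95% interval 1.28 to 2.01), or 3.13-fold, with a limma adjusted p of 0.000442. The exact permutation p of the unadjusted values was 0.00794, the smallest that 5 against 5 arrays can give. The upper 95% bound of each of the 38 leukocyte genes lay below the lower bound of Gzma.

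None of the 7 cytotoxic and NK genes passed alongside it. Prf1 encodes perforin, the pore former that granzymes need. It had 6.38, 6.12, 6.17, 6.26 and 6.46 in TKO 1 to 5, against 6.53, 6.11, 6.57, 6.63 and 6.66 in WT 1 to 5. Of the WT embryos 4 were above every TKO embryo and WT 2 was below them all, and the change was -0.23 (95% interval -0.51 to 0.04, limma adjusted p = 0.373). Gzmb encodes granzyme B, which triggers apoptosis in the target cell. It had 3.12, 3.41, 3.38, 3.72 and 3.59 in TKO 1 to 5, against 3.43, 3.58, 3.31, 3.48 and 3.15 in WT 1 to 5. These values were mixed between genotypes and close to the bottom of the array's range, with a change of -0.01 (95% interval -0.29 to 0.28). Gzmm, another lymphocyte granzyme, had 5.46, 5.56, 5.68, 5.84 and 5.63 in TKO 1 to 5, against 5.42, 5.68, 5.39, 5.51 and 5.49 in WT 1 to 5, a change of 0.13 (95% interval -0.10 to 0.35).

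Nkg7, a granule membrane protein of killer cells, had 5.99, 5.91, 5.62, 6.15 and 6.19 in TKO 1 to 5, against 5.83, 5.70, 5.88, 6.01 and 6.14 in WT 1 to 5. The genotypes covered the same range, and the change was 0.0014 (95% interval -0.28 to 0.28). The NK receptors Klrd1 (CD94) and Ncr1 (NKp46) and the interleukin 2 and 15 receptor chain Il2rb were all under the 25th percentile of gene means, with changes of -0.05, -0.15 and -0.12. The mean of these 7 genes lay between 4.69 and 4.99 in TKO and between 4.76 and 4.91 in WT.

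None of the 4 measured T cell genes passed. Cd8a, the coreceptor chain of cytotoxic T cells, had 4.92, 4.58, 4.75, 4.97 and 4.88 in TKO 1 to 5, against 4.90, 4.81, 4.91, 5.23 and 4.92 in WT 1 to 5. Its change was -0.12, and apart from a higher value in WT 4 the genotypes overlapped closely. Cd4, the coreceptor of helper T cells, which some macrophages also carry, had 4.44, 4.84, 4.56, 4.80 and 5.09 in TKO 1 to 5, against 4.86, 4.97, 4.77, 4.58 and 4.70 in WT 1 to 5. Its change was -0.13, with both genotypes over the same range. The chains of the CD3 signalling complex stood on opposite sides of 0, both under the 25th percentile: Cd3e changed by -0.09 (limma adjusted p = 0.79). Cd3g had 4.19, 4.11, 4.28, 4.36 and 3.96 in TKO 1 to 5, against 3.91, 3.80, 3.90, 4.10 and 4.17 in WT 1 to 5, an estimate of 0.24 (95% interval -0.01 to 0.49, limma adjusted p = 0.323). Cd3e and Cd3g are on chromosome 9, as Mir34b is, with 70 and 72 protein-coding genes between them and it in RefSeq order.

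**Figure D2:**
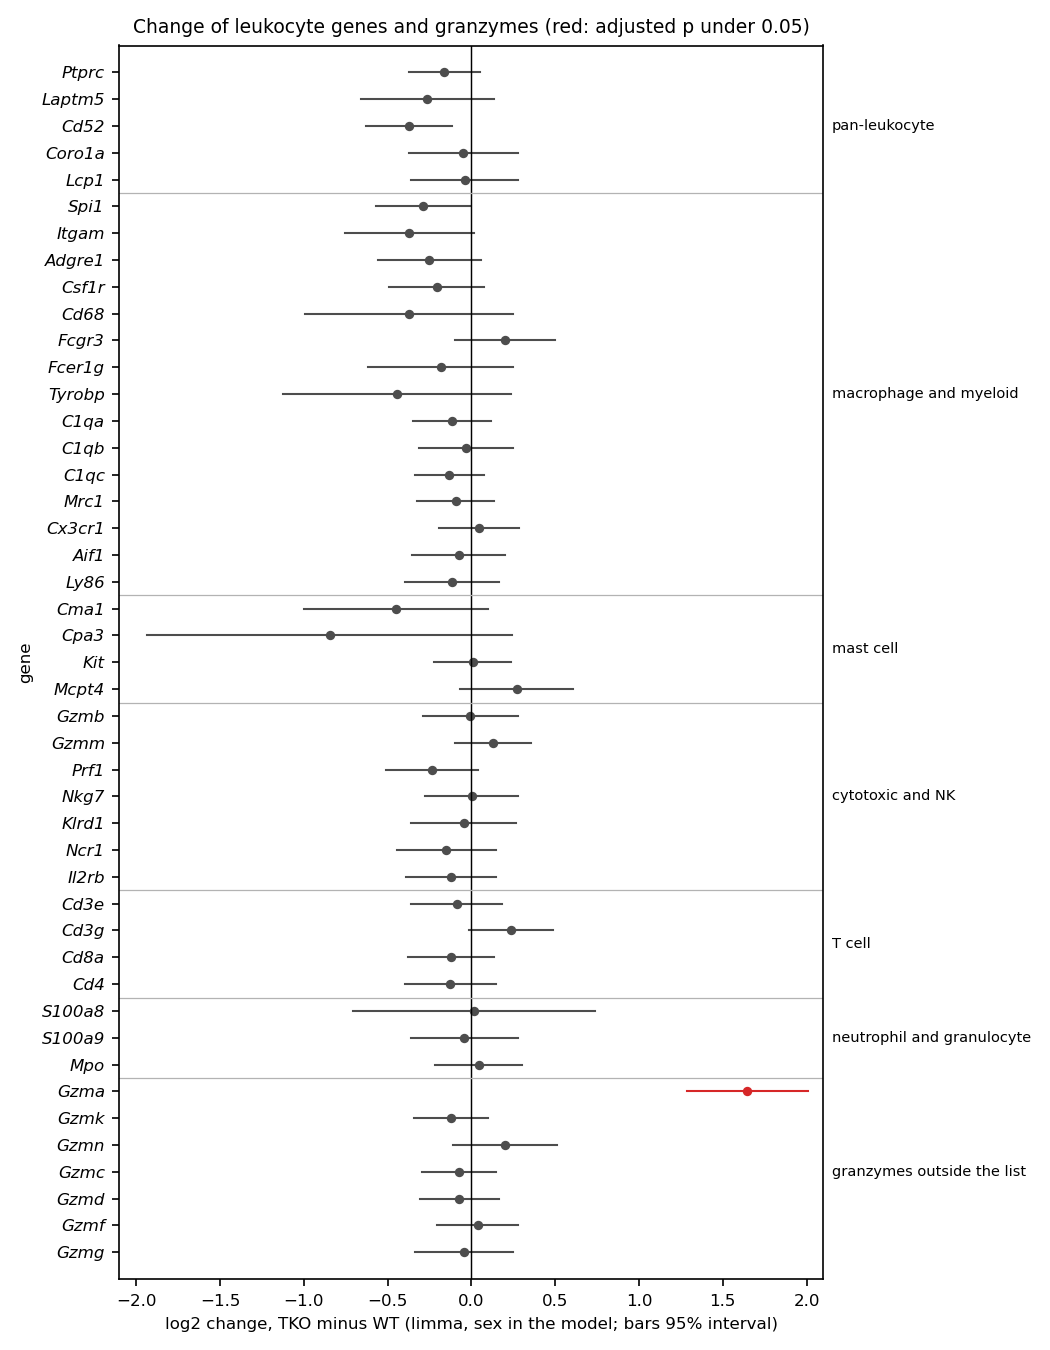
Points are log2 changes, TKO minus WT, from limma with sex in the model, and bars are 95% intervals, for the 38 leukocyte genes and for 7 granzyme genes outside the set. Gzma, in red, is the only gene drawn with an adjusted p under 0.05, and its interval of 1.28 to 2.01 lies to the right of the others.

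Apart from Gzma, no granzyme gene outside the set passed. Gzmk, which lies next to Gzma on chromosome 13, had 5.40, 5.83, 5.31, 5.82 and 5.51 in TKO 1 to 5, against 5.61, 5.52, 5.72, 5.62 and 5.43 in WT 1 to 5. TKO embryos held both the highest and the lowest values, and the change was -0.12 (95% interval -0.34 to 0.10, limma adjusted p = 0.605). The changes of Gzmc, Gzmd, Gzmf, Gzmg and Gzmn lay between -0.07 and 0.20, and none passed. These 5 were under the 25th percentile, and as near copies in 1 gene cluster they may share probes, so their separate values are uncertain. Of 7 granzyme genes measured outside the set, 1 therefore passed, which was Gzma. Its rise was known when the list was written, so the count is informative only for the other granzymes.

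Gzma and Gzmk are both close to the targeted Mir449 genes. In RefSeq order, 1 protein-coding gene, Gpx8, lies between Mir449a and Gzma, and 2 lie between Mir449a and Gzmk. Gpx8, a peroxidase of the endoplasmic reticulum, rose by 0.78 (limma adjusted p = 0.000255), and Cdc20b, the host gene of the cluster, rose by 1.41 (limma adjusted p = 4.37e-05). On the other side of the cluster Ccno and Mcidas, regulators of multiciliated cells, rose by 0.76 and 0.55 (limma adjusted p = 0.000965 and 0.00849). No gene of the leukocyte set is as near to a targeted gene: the only such gene on chromosome 13 is Ly86, a partner of a Toll-like receptor relative, with 498 protein-coding genes between it and Mir449a and a change of -0.12. The part of gene position in the rise of Gzma was not tested.

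The promoters of Gzma and Gzmk are shown because these neighbours both encode granzymes of lymphocytes and only Gzma passed the test. Each runs from 250 bases before to 50 after the start of the gene in RefSeq (GRCm38.p6), on the minus strand. Capitals mark the short RUNX motif TGTGGT or its reverse complement ACCACA; RUNX factors are regulators of cytotoxic T cells.
Gzma (chr13:113100932-113101231): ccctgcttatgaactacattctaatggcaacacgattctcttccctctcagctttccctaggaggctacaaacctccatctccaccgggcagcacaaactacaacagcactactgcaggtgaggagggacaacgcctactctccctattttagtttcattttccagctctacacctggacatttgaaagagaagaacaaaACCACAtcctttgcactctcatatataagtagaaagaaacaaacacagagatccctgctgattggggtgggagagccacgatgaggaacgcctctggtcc
Gzmk (chr13:113180916-113181215): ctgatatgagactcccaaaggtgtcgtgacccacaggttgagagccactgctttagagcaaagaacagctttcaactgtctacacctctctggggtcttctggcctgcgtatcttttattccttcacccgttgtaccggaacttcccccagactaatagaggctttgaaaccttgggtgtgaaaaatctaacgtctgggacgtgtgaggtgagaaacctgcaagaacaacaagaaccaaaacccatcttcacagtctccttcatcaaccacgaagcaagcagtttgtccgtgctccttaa
The Gzma window holds 1 RUNX motif, and 1 match to the PU.1 motif given further on that is not marked, and the Gzmk window holds neither. The RUNX motif was found on either strand in 16.8% of 32851 mouse promoters of this length. It was in 14 of the 38 promoters listed for 30 of the 39 leukocyte genes, Lck included (36.8%). In the cytotoxic and NK group 6 of 7 promoters held it (85.7%), but these belong to 5 genes, Gzmm and Ncr1 with 2 each. In the T cell group only 1 of 5 promoters held it, and in the pan-leukocyte group 0 of 7. It was in 3 of 5 mast cell promoters, 3 of 11 macrophage and myeloid promoters and 1 of 3 neutrophil and granulocyte promoters. The motifs were picked after the data were seen, and a match describes letters in a window only.

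Macrophage and myeloid genes, the largest group with 15 genes, held large differences between embryos of the same genotype, and none passed the test. Cd68, a lysosomal membrane protein of macrophages and osteoclasts, had 6.42, 7.53, 6.37, 8.31 and 7.94 in TKO 1 to 5, against 7.48, 6.32, 7.82, 7.73 and 6.63 in WT 1 to 5. TKO 1, TKO 3, WT 2 and WT 5 were low and the other embryos high, so both genotypes held both kinds. The means were 7.31 ± 0.89 in TKO and 7.19 ± 0.68 in WT (SD, n = 5 each), and the change with sex in the model was -0.37 (95% interval -0.99 to 0.25, limma adjusted p = 0.566), which turned to 0.12 without sex in the model. Tyrobp encodes DAP12, a signalling adaptor of myeloid and NK cells. It had 6.16, 7.50, 6.10, 8.14 and 7.25 in TKO 1 to 5, against 6.98, 5.90, 7.70, 7.73 and 6.52 in WT 1 to 5, with the same embryos at the low end. Its means were 7.03 ± 0.88 in TKO and 6.97 ± 0.78 in WT (SD, n = 5 each), and the change was -0.44 with sex in the model (95% interval -1.13 to 0.24) and 0.062 without it. Fcer1g, the common chain of activating antibody receptors, had 5.79, 6.44, 5.91, 6.89 and 6.56 in TKO 1 to 5, against 6.29, 5.42, 6.72, 6.59 and 6.04 in WT 1 to 5. Its order of embryos was close to that of Cd68, and its change was -0.18 with sex in the model (limma adjusted p = 0.71) and 0.11 without it. The direction of all these 3 estimates therefore turned with the sex term.

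Other macrophage genes varied far less over the same embryos. Csf1r, the receptor of colony stimulating factor 1, had 5.86, 5.88, 5.64, 6.09 and 6.16 in TKO 1 to 5, against 5.98, 5.50, 6.37, 6.11 and 5.97 in WT 1 to 5, a change of -0.21. C1qb, a chain of the first complement component made by macrophages, had 6.15, 6.21, 6.28, 6.40 and 6.74 in TKO 1 to 5, against 6.50, 6.15, 6.26, 6.51 and 6.32 in WT 1 to 5. Both genes overlapped between genotypes, and the fit gave C1qb a change of -0.03. Its sister chains C1qa and C1qc were at -0.12 and -0.13. Cx3cr1, the fractalkine receptor of tissue macrophages, had 7.06, 6.80, 6.84, 6.91 and 7.17 in TKO 1 to 5, against 6.97, 6.59, 6.99, 6.97 and 6.94 in WT 1 to 5, a change of 0.05. WT 2 was below all other embryos for this gene.

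Spi1 encodes PU.1, the master regulator of the myeloid lineage. It had 5.87, 6.20, 5.41, 6.32 and 6.12 in TKO 1 to 5, against 6.14, 5.91, 6.25, 6.29 and 5.95 in WT 1 to 5. TKO 3 was the lowest, the genotypes overlapped, and the change of -0.29 (95% interval -0.57 to -0.01) missed the threshold in limma (adjusted p = 0.276). Itgam, the integrin chain CD11b, was at -0.37, Adgre1, the macrophage surface protein F4/80, at -0.25, Mrc1, the mannose receptor, at -0.10, and Aif1, an actin-binding protein of macrophages, at -0.08. The antibody receptor gene Fcgr3 was at 0.20 (limma adjusted p = 0.513). Over the 15 genes, 13 estimates were negative, the median was -0.13, and the mean level lay between 5.47 and 6.01 in TKO and between 5.41 and 5.97 in WT.

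The PU.1 motif GAGGAA or TTCCTC was found in 8 of 11 promoters listed for 10 of the macrophage and myeloid genes (72.7%). It was in 19 of the 38 promoters of the set and in 28.3% of all mouse promoters of this length, both strands searched. The promoter of Cd68 is shown as that of the gene with the widest swing among the macrophage genes that have an entry, with the PU.1 motifs in capitals (minus strand, RefSeq GRCm38.p6).
Cd68 (chr11:69666121-69666420): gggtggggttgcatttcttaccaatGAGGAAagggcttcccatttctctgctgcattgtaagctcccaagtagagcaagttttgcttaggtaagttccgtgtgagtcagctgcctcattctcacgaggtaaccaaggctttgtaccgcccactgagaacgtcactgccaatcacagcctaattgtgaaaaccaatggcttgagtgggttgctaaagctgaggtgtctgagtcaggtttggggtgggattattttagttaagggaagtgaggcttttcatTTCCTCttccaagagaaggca
The window holds 2 PU.1 motifs and none of RUNX.

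Of the 4 mast cell genes none passed, and Cpa3 had the widest range over the arrays of all 38 genes. Cpa3, a carboxypeptidase stored in mast cell granules, had 5.06, 6.82, 7.02, 7.24 and 7.90 in TKO 1 to 5, against 7.12, 5.07, 8.52, 7.39 and 7.16 in WT 1 to 5. TKO 1 and WT 2 were low and WT 3 was the highest. The means were 6.81 ± 1.06 in TKO and 7.05 ± 1.24 in WT (SD, n = 5 each), and the change was -0.84 (95% interval -1.93 to 0.24, limma adjusted p = 0.427). It was -0.24 without sex in the model, -0.41 without TKO 1 and -1.42 without TKO 3, and none of these passed. Cma1, the chymase of the same granules, had 4.44, 5.09, 5.37, 5.50 and 5.89 in TKO 1 to 5, against 5.57, 4.63, 6.31, 5.41 and 5.00 in WT 1 to 5. Its low and high embryos were those of Cpa3, and its change was -0.45 (SE 0.25, limma adjusted p = 0.394). It was -0.12 without sex, -0.28 without TKO 1, -0.76 without TKO 3 and -0.24 without WT 3. The tryptase gene Tpsb2, which is outside the set, had 4.02, 4.40, 4.91, 4.94 and 5.28 in TKO 1 to 5, against 5.12, 4.44, 5.87, 4.91 and 4.22 in WT 1 to 5, a change of -0.49 (limma adjusted p = 0.372).

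Kit, the stem cell factor receptor of mast cells, melanocytes and some epithelial cells, varied little: it had 8.12, 8.06, 8.08, 7.88 and 7.95 in TKO 1 to 5, against 8.17, 8.01, 8.03, 7.73 and 8.29 in WT 1 to 5, a change of 0.01. It did not share the low values of Cpa3 in TKO 1 and WT 2. Mcpt4, another mast cell chymase, was under the 25th percentile with a change of 0.27 (95% interval reaching 0.61).

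**Figure D3:**
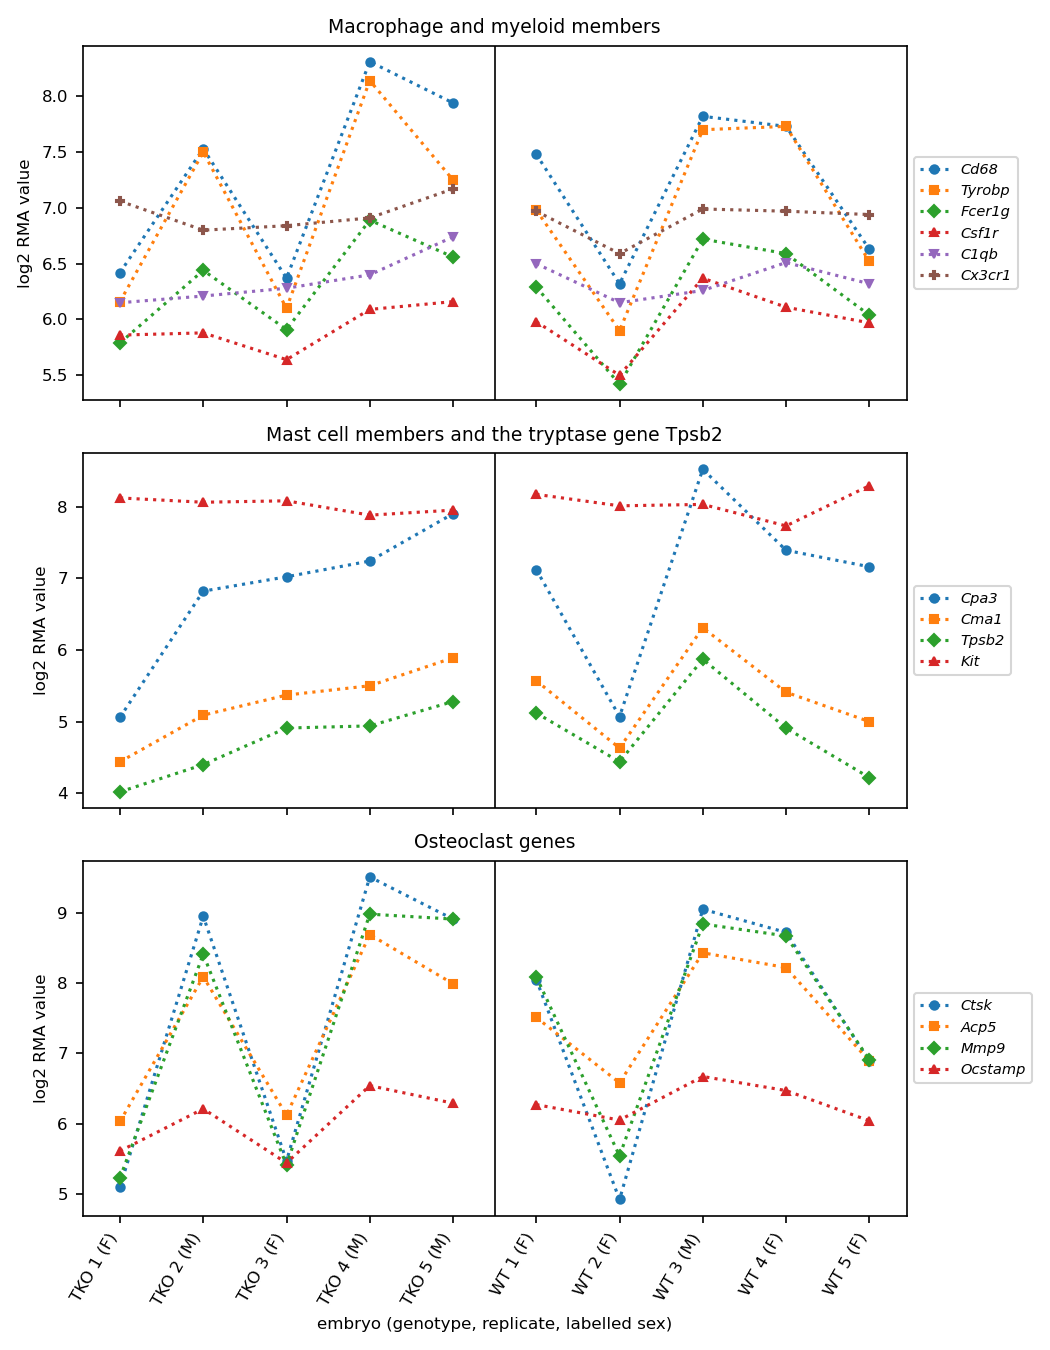
The log2 RMA value of each gene is drawn for each embryo, TKO at the left and WT at the right of each panel, and the dotted lines only link the points of a gene. Cd68, Tyrobp and Fcer1g dip in TKO 1, TKO 3 and WT 2 as the osteoclast genes Ctsk, Acp5 and Mmp9 do, while Cpa3 and Cma1 dip in TKO 1 and WT 2 and Kit stays level.

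None of the 5 pan-leukocyte genes passed. Lcp1, an actin bundler of blood cells, had 6.79, 6.68, 6.57, 6.70 and 6.74 in TKO 1 to 5, against 6.88, 6.14, 6.82, 6.82 and 6.88 in WT 1 to 5, a change of -0.04. WT 2 was the lowest and the other embryos were within a narrow band. Laptm5, a lysosomal protein of blood cells, had 6.20, 6.35, 5.93, 6.51 and 6.50 in TKO 1 to 5, against 6.90, 5.78, 6.60, 6.37 and 6.52 in WT 1 to 5, a change of -0.26 (limma adjusted p = 0.513). Cd52, a small surface glycoprotein of lymphocytes and macrophages, had 5.38, 5.47, 5.22, 5.50 and 5.69 in TKO 1 to 5, against 5.85, 5.43, 5.99, 5.82 and 5.45 in WT 1 to 5. WT 1, WT 3 and WT 4 stood above all TKO embryos, while WT 2 and WT 5 did not, and the change was -0.37 (95% interval -0.63 to -0.12) with the smallest adjusted p of the set, 0.114 in limma. Coro1a, an actin regulator of leukocytes, was at -0.05, and Ptprc, whose values are given above, at -0.16.

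None of the 3 neutrophil and granulocyte genes passed. S100a9, a subunit of calprotectin, had 4.67, 4.54, 4.69, 4.92 and 5.38 in TKO 1 to 5, against 4.72, 4.81, 4.88, 4.85 and 4.78 in WT 1 to 5, a change of -0.04. Its partner S100a8 had 2.65, 2.92, 3.91, 3.59 and 4.60 in TKO 1 to 5, against 3.71, 3.13, 3.70, 3.34 and 2.85 in WT 1 to 5. TKO 5 was the highest for both, and the S100a8 interval of -0.71 to 0.74 was among the widest of the set. Mpo, the peroxidase of neutrophil granules, had 4.54, 4.82, 4.78, 4.48 and 4.83 in TKO 1 to 5, against 4.70, 4.75, 4.46, 4.87 and 4.61 in WT 1 to 5, a change of 0.04.

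Among leukocyte genes outside the set, Gzma and Cd7 passed and no other did. Of 159 measured genes on 8 further leukocyte lists, 2 passed (1.26%, against 3.51% of all genes), both higher in TKO. The rise of Gzma was the starting point of the question, so its call adds nothing new and only that of Cd7 does. The median change was -0.066, and 76 of the 159 were under the 25th percentile. No gene passed among 24 further cytotoxic and NK genes, where the smallest p belonged to the transcription factor gene Eomes (-0.32, limma adjusted p = 0.275) and the receptor gene Cd244a (0.29, limma adjusted p = 0.292). None passed among 15 B cell genes, where Cd37 was at -0.20 and Vpreb3 at -0.51. None passed among 39 macrophage and monocyte genes, where the folate receptor gene Folr2 was at -0.29 (limma adjusted p = 0.0953) and the scavenger receptor gene Stab1 at -0.26. The same held for 20 neutrophil genes (Lcn2 at 0.47, Itgb2l at -0.23), 15 mast cell and basophil genes (Mrgprb1 at -0.27, Mcpt2 at 0.24) and 14 dendritic cell and class II genes (H2-DMa at -0.18, Cd209a at -0.19).

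Cd7, a surface glycoprotein of T and NK cells, was the only gene of 25 on the T cell list that passed (4.0%, against 3.51% of all genes). It had 6.98, 7.29, 7.42, 6.99 and 6.99 in TKO 1 to 5, against 6.59, 6.41, 6.25, 6.17 and 6.28 in WT 1 to 5. Every TKO embryo was above every WT embryo. Cd7 rose by 0.84 (95% interval 0.58 to 1.10), or 1.79-fold, with a limma adjusted p of 0.00353, and with females only the change was 0.84 with an adjusted p of 0.1. It is on chromosome 11, which carries none of the targeted microRNA genes. On the same list Il2ra, the alpha chain of the interleukin 2 receptor, had 5.44, 5.47, 5.62, 5.50 and 5.56 in TKO 1 to 5, against 5.02, 5.29, 5.27, 5.33 and 5.29 in WT 1 to 5. Its arrays did not overlap, and its change of 0.28 missed the threshold in limma (adjusted p = 0.15).

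Of 13 measured genes for ligands and partners of the receptors in the set, 0 passed. The smallest p belonged to B2m, the light chain of class I molecules (-0.36, limma adjusted p = 0.372), and Sirpa, a receptor for CD47 (0.17, limma adjusted p = 0.569). The macrophage growth factor genes Csf1 and Il34 were at -0.13 and -0.14, the stem cell factor gene Kitl at 0.11, the fractalkine gene Cx3cl1 at 0.04 and Il15 at -0.06. Among 13 chemokine receptor genes 0 passed, with Ccr9 at 0.35 and Ackr3 at -0.19.

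Among 27 chemokine and epithelial cytokine genes, 2 rose and 1 fell (11.1%, against 3.51% of all genes). Il18, an activator of NK cells that epithelia store, had 6.27, 5.14, 5.38, 5.42 and 4.96 in TKO 1 to 5, against 4.56, 4.42, 4.84, 4.76 and 4.53 in WT 1 to 5. All TKO values were above all WT values, with TKO 1 far above the rest. Il18 rose by 0.92, or 1.90-fold (limma adjusted p = 0.0325), and without TKO 1 the change was 0.58 (limma adjusted p = 0.0856). It missed the threshold in 11 of 23 alternatives, 7 of which left out TKO 1, TKO 2, TKO 3, TKO 4, WT 1, WT 2 or WT 4. Il18 is on chromosome 9 with 18 protein-coding genes between it and Mir34b.

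Tslp, an alarm cytokine of epithelia that acts on dendritic and lymphoid cells, had 6.14, 5.97, 6.22, 5.83 and 6.14 in TKO 1 to 5, against 5.70, 5.80, 5.58, 5.54 and 5.70 in WT 1 to 5. The genotypes did not overlap, and Tslp rose by 0.46, or 1.38-fold (limma adjusted p = 0.021). Without TKO 1, TKO 3 or WT 3 its adjusted p was 0.0679, 0.11 or 0.106. Ccl28, a chemokine of mucosal epithelia for antibody-secreting cells and T cells, had 5.67, 5.63, 5.75, 5.96 and 5.75 in TKO 1 to 5, against 6.14, 6.14, 6.51, 6.13 and 6.07 in WT 1 to 5. Every TKO embryo was below every WT embryo, and Ccl28 fell by 0.53, or 1.44-fold (limma adjusted p = 0.0126). WT 3, the only WT male, was the highest, and without it the change was -0.41 (limma adjusted p = 0.148). That is also the estimate with females only. Ccl28 is on chromosome 13, with 24 protein-coding genes between it and Mir449a.

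**Figure D4:**
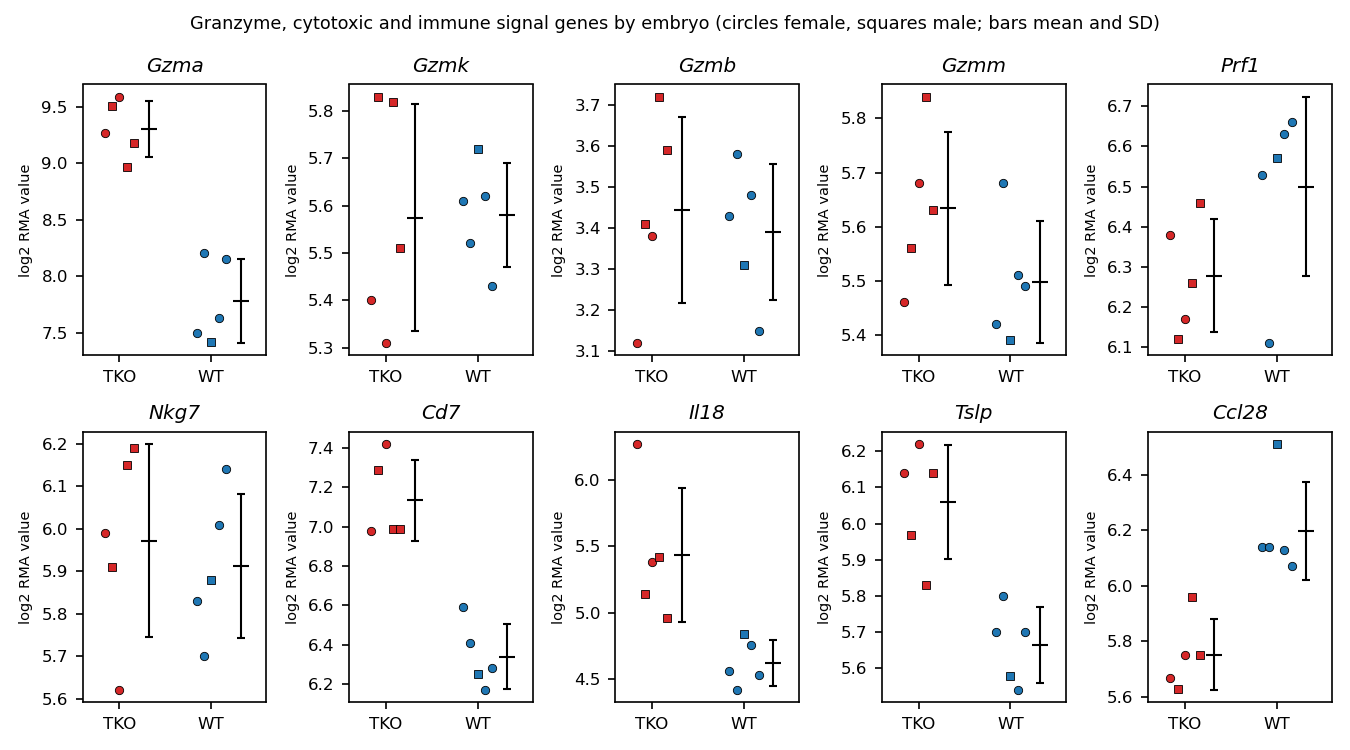
Log2 RMA values of 10 genes are plotted by embryo, TKO in red at the left and WT in blue at the right of each panel, with circles for females, squares for males, and the mean and SD beside each group (n = 5). Each panel has its own axis, which does not start at 0. Gzma, Cd7, Il18, Tslp and Ccl28 separate the genotypes, and Gzmk, Gzmb, Gzmm, Prf1 and Nkg7 do not.

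Several myeloid and mast cell genes had higher values in males, and labelled sex is unbalanced between genotypes. The model gave a male minus female difference above 0 for 33 of the 38 genes, against 10730 of all 22180 genes. The same held for 9 of 9 osteoclast, 19 of 20 endothelial and 18 of 20 mesenchyme genes, and for 9 of 18 epithelial genes. The lean to males was therefore not particular to leukocyte genes. The difference was 1.23 for Cd68, 1.27 for Tyrobp, 0.73 for Fcer1g, 1.5 for Cpa3 and 0.82 for Cma1. An unadjusted p under 0.05 for sex was reached by 9 of the 38 genes (Cd52, Spi1, Adgre1, Csf1r, Cd68, Fcer1g, Tyrobp, Cma1 and Cpa3), all higher in males, against 7.26% of all genes. None of them passed after adjustment, where the smallest limma adjusted p was 0.345, and 0.0316% of all genes passed. With a single WT male, WT 3, the data can say little on whether the effect of genotype differs between sexes. In the limma interaction 0 of the 38 passed (smallest adjusted p = 0.99, and Coro1a alone had an unadjusted p under 0.05), against 0.00451% of all genes, and this does not show that the effects are alike.

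Genes of other cells around the epithelium moved with these same embryos. The mean of 9 osteoclast genes was 5.07, 6.55, 5.18, 7.19 and 6.75 in TKO 1 to 5, against 6.32, 5.21, 6.89, 6.73 and 5.85 in WT 1 to 5. It was lowest in TKO 1, TKO 3 and WT 2, as Cd68 was. Ctsk, the collagen-degrading protease of osteoclasts, had 5.10, 8.95, 5.47, 9.51 and 8.91 in TKO 1 to 5, against 8.05, 4.92, 9.05, 8.72 and 6.89 in WT 1 to 5. With sex in the model all 9 osteoclast estimates were negative with a median of -0.54, and without it the median was 0.022. Ocstamp, a fusion protein of osteoclasts, fell by 0.55 (limma adjusted p = 0.0303). It missed the threshold in 10 of 24 alternatives, among them the fits without TKO 1, TKO 2, TKO 3, TKO 5, WT 1 or WT 3 (limma adjusted p between 0.0525 and 0.159), and its change was -0.28 without sex in the model. With the osteoclast mean as a covariate the changes of Cd68 and Tyrobp were 0.22 and 0.19, in place of -0.37 and -0.44, and those of Cpa3 and Cma1 were -0.26 and -0.24. With the mesenchyme mean as the covariate the changes were 0.20 for Cd68, 0.23 for Tyrobp, -0.49 for Cpa3 and -0.39 for Cma1. Both covariates are means of genes on the same arrays, so these fits do not separate the kinds of cell. The osteoclast mean holds Ocstamp itself, so the weaker change of Ocstamp with that covariate, among its lost calls, is partly built in. The part of osteoclast, mesenchyme or other cells in the values of the leukocyte genes was not tested.

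Estimates for most lists of neighbouring cells were mainly negative as well. All 20 mesenchyme estimates were negative with a median of -0.34, or -0.15 without sex in the model. The list mean lay between 6.78 and 7.93 in TKO and between 7.06 and 7.87 in WT, and the collagen gene Col3a1 fell by 0.48 (limma adjusted p = 0.029), which missed the threshold in 8 of 24 alternatives. Those include the fits without TKO 1, TKO 3, WT 1 or WT 3 (limma adjusted p between 0.0607 and 0.147). The fit without sex (-0.24, limma adjusted p = 0.558) is another. The fit with the mesenchyme covariate also counts among them, but that mean holds Col3a1 itself, so a weaker change there is built in. Of 20 endothelial genes 19 estimates were negative and 0 passed (median -0.25, or -0.13 without sex, list mean between 5.19 and 5.61 in TKO and between 5.39 and 5.77 in WT), with Ramp2 at -0.41 (limma adjusted p = 0.0505) and Tie1 at -0.39. The 10 erythroid genes had a median of -0.13 (-0.083 without sex) and 0 calls (Hba-x at -0.36, Epb42 at -0.17). The 8 platelet genes had a median of -0.096 (-0.052 without sex) and 0 calls (Nbeal2 at -0.19, Treml1 at -0.21), and the 7 melanocyte genes -0.23 (-0.14 without sex) and 0 calls (Mitf at -0.54, Slc45a2 at -0.23). The epithelial list had a median of 0.0068, with Ccno and Mcidas as its 2 calls.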

How the data were processed

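RNA from laser-captured nasal respiratory epithelium of 10 embryos was measured on 1 array each. The deposited values are log2 values that the authors made with RMA, per the submitters' processing notes in the Affymetrix Expression Console. RMA subtracts background and forces arrays to a common distribution, which limits differences in overall brightness. The labels do not state the program version, summary level or genome build. Scanner files were not used, and no detection call is given. The number of arrays limits the precision.

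Of 41345 probe sets, 23521 had 1 gene symbol, 1814 several and 16010 none, and 23328 of the first matched RefSeq (GRCm38.p6) by Entrez ID. The probe set with the highest mean was kept for each of 22180 genes. Values ran from 1.50 to 13.7, and arrays correlated at 0.975 to 0.989. TKO was tested against WT by limma 3.58.1 under R 4.3.3 (sex and genotype, intensity trend, two-sided, Benjamini-Hochberg over all genes, threshold 0.05), and means and SDs are not adjusted for sex. The labels call the samples separate embryos. The fit was tested on simulated data. The genes and lists were chosen with earlier results of these data known. Arrays are quoted for the brightest genes of each role and others singled out after their values were seen, and from each further list the calls, or else the 2 genes with the smallest p, are named. Alternatives covered sex, the replicate block, filters, scalings, variance models, array weights, probe set rules, females only, each array left out, and 2 covariates added after the data were seen. Figures were drawn with matplotlib 3.10.9.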

Additional observations from a re-analysis of the deposited data

Results flagged for a closer look

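Single embryos stood apart from the other 4 of their genotype, by a gap over range above the 95% critical value for a group of 5, in 6 cases out of 88 genotype groups examined, and chance gives about 1 in 20. Of these, 5 were leukocyte genes, out of 76 groups. WT 2 was low for Lcp1 (6.14, others 6.82 to 6.88), Cx3cr1 (6.59, others 6.94 to 6.99) and Prf1 (6.11, others 6.53 to 6.66). WT 1 was low for Ptprc (3.47, others 3.72 to 3.77), and WT 4 was high for Cd8a (5.23, others 4.81 to 4.92). WT 3 was high for Ccl28 (6.51, others 6.07 to 6.14). All 6 were WT embryos, and WT 2 was also among the lowest for Cd68, Cpa3 and the osteoclast genes.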

How the results depend on the processing

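The count of 0 leukocyte genes past the threshold held under each of the 24 alternatives, with a smallest adjusted p between 0.0689 (without WT 5) and 0.314. At an unadjusted p under 0.05 the count was 2, and it ran from 0 without sex to 9 without WT 2 or with the replicate block. No leukocyte gene was called in any setting. By sign, 18 of them kept theirs throughout and 20 uncalled ones did not. Their median change ran from -0.149 to -0.0772 with an array left out, and the interaction count was 0 in its 4 settings. The count over all genes, 779, was less stable: 45 with females only, 196 with the osteoclast covariate, 152 with the mesenchyme covariate, and between 163 (without WT 3) and 1132 (without WT 5) with an array left out (459 without TKO 1, 506 without TKO 2, 218 without TKO 3). Females only and the fits without an array hold fewer samples, yet the count without WT 5 was above that of the full set. Without WT 3, the only WT male, the estimates were those of females only, with a leukocyte median of -0.149 in both. The cause of the shifts in count was not tested. Gzma kept its call in 24 of 24 alternatives (1.43 to 1.76, largest limma adjusted p 0.0397) and Cd7 in 23 (0.70 to 0.95). Il18 lost its call in 11 of 23, Tslp in 6 and Ccl28 in 4. Replicate numbers are shared by the genotypes, yet the deviations of same-numbered embryos correlated at -0.071, -0.018, -0.1, 0.311 and -0.052, and only embryos numbered 4 correlated best with their own number, so the numbers were not taken as pairs. With the replicate block 913 genes and 0 leukocyte genes passed, and the leukocyte median was -0.11.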
